A study of Homo sapiens and Mus musculus with 13 samples.

Results

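Described here are 53 mouse genes of nuclear transport: the exportins, the importins, the Ran GTPase cycle, the mRNA export receptor and the nucleoporins that line the nuclear pore. They were chosen by symbol and by a mean of at least 10 normalised reads over the 5 mouse libraries. The rule itself uses no measured difference between groups, but members and lists were chosen with earlier results of these data known. Of 55 rows with a matching symbol, among 37991 genes in the table, 53 passed that minimum. They carry 52 symbols, because Ipo11 has 2 Ensembl identifiers. The members nearest above the minimum averaged 30.3 (the second Ipo11 identifier, ENSMUSG00000078933) and 34.5 (Nup210l). Kpna7, an importin alpha of oocytes, and Nup62cl, a relative of Nup62, lay below it without a single read: 0 of 29020663 from the clones, against 0 of 109285735 from the parental line. A count of 0 allows up to 3 reads in each of those totals. The values are read counts per gene divided by a size factor for each library.

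By its title, the study is about NPM1c, the cytoplasmic mutant of nucleophosmin found in acute myeloid leukaemia, and active transcription. In its mouse arm, progenitors immortalized by HOXB8 received NPM1ca-GFP at the Npm1 locus by CRISPR/Cas9. The tested cells are 3 single-cell clones of this knock-in, titled clone 4, clone 12 and clone 18, with 1 library each. They are set against 2 libraries of the HOXB8 parental line, labelled wild-type and titled rep1 and rep2. Column headings in the deposited tables number the clones differently within the knock-in group, so a clone number here is the one in the title. The descriptions also number the parental libraries the other way round from their titles, while the column headings follow the titles. Parental replicates 1 and 2 here are rep1 and rep2 of the titles, and each statement about a single parental library rests on that. All 5 carry HOXB8, and the mouse lines were kept in medium with stem cell factor and beta-estradiol. Each clone is descended from a single edited cell and expresses a GFP fusion, and no clone that went through editing without the insertion is among the controls. Clonal differences, the GFP tag and NPM1c therefore cannot be told apart. Whether parental rep1 and rep2 were grown apart is not labelled, so p-values measure the spread between these samples, which may be technical.

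Large proteins cross the nuclear envelope through the nuclear pore complex, bound to receptors of the importin beta family. Importins release their cargo where they meet RanGTP, which is abundant in the nucleus, while exportins bind cargo together with RanGTP and release it when the GTP is hydrolysed in the cytoplasm. XPO1, also called CRM1, is the exportin for leucine-rich export signals. The NPM1c mutation creates such a signal and destroys a nucleolar one, so that XPO1 carries the mutant protein into the cytoplasm.

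The libraries held 7358340, 12235174 and 9427149 reads in clones 4, 12 and 18, and 9728260 and 99557475 reads in parental replicates 1 and 2. Npm1, the targeted gene, was at 14305, 15141 and 14144 normalised reads in clones 4, 12 and 18, against 25695 and 25714 in parental replicates 1 and 2. No clone reached the parental level, and the fall was 0.82 on the log2 scale (log2 fold change -0.82, SE 0.0673, adjusted p = 0.000533, limma). The table does not separate mutant from normal transcripts. Of the progenitor and immature myeloid markers, all 9 in the table had reads in all 5 libraries, at summed levels of 76459 to 81728 in the clones and 96506 to 106705 in the parental libraries. By gene this list was split, with 2 called higher, 3 called lower and log2 fold changes of -2.57 to 1.27 (limma). The T cell list summed to at most 1.23, with Cd3e and Cd3g at 0 in all 5 libraries, and the erythroid list to 39.6 to 68.9 in the clones and 3.11 to 8.24 in the parental libraries, with Hba-a1 at 0. Mast cell and basophil markers summed to 9483 to 12012 in the clones and 2931 to 5357 in the parental libraries, megakaryocyte markers to 2015 to 3069 and 319 to 387, and B cell markers to 734 to 1012 and 1319 to 1374. Of the 3 megakaryocyte markers tested, 1 was called higher and none lower, with log2 fold changes of -0.59 to 3.34 (limma). The stromal and endothelial list summed to 7460 to 9160 in the clones and 3319 to 3511 in the parental libraries and was nearly all Pecam1, which myeloid progenitors also express, while Cdh5 was at 0. The part of these lineage markers in the results below was not tested.

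Among the transport genes, 10 of 53 were lower in the knock-in clones and none was higher (adjusted p under 0.05, limma over all 13132 genes tested). That is 18.9% lower, beside 8.49% of all genes lower and 7.51% higher, or 16.0% of all genes called in either direction. The 10 are Xpo1 and Cse1l among exportins, Ipo9 and Kpna2 among importins, and Nup107, Nup85, Nup43, Nup155, Nup205 and Nup88 among nucleoporins. At an unadjusted p under 0.05, 20 were lower and 2 were higher, beside 2102 lower and 1985 higher of all 13132 genes tested. The test of recovered read counts with edgeR gave 10 lower and 0 higher (8.96% and 7.84% of all genes), DESeq2 gave 12 lower and 1 higher (10.5% and 9.88%), and limma with voom weights on those reads gave 13 lower and 1 higher (11.8% and 11.1%). The median log2 fold change was -0.17 over the members and 0.01 over all genes tested. All 3 clones lay below both parental libraries in 28 of the 53 members and above both in 2, or 52.8% and 3.77%, beside 25.8% and 24.5% of all genes and 50.2% in either direction. The differences were small: 2 of the 53 members, Nup107 and Nup43, were called and changed at least 1.5-fold, beside 12.2% of all genes tested. The counts rested on single libraries. Without clone 12 or without parental replicate 2, 3 members were called, all lower, while 4.20% and 3.02% of all genes were then called lower. Without parental replicate 1, 4 were lower and 6 higher (4.26% and 9.26% of all genes).

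**Figure D1:**
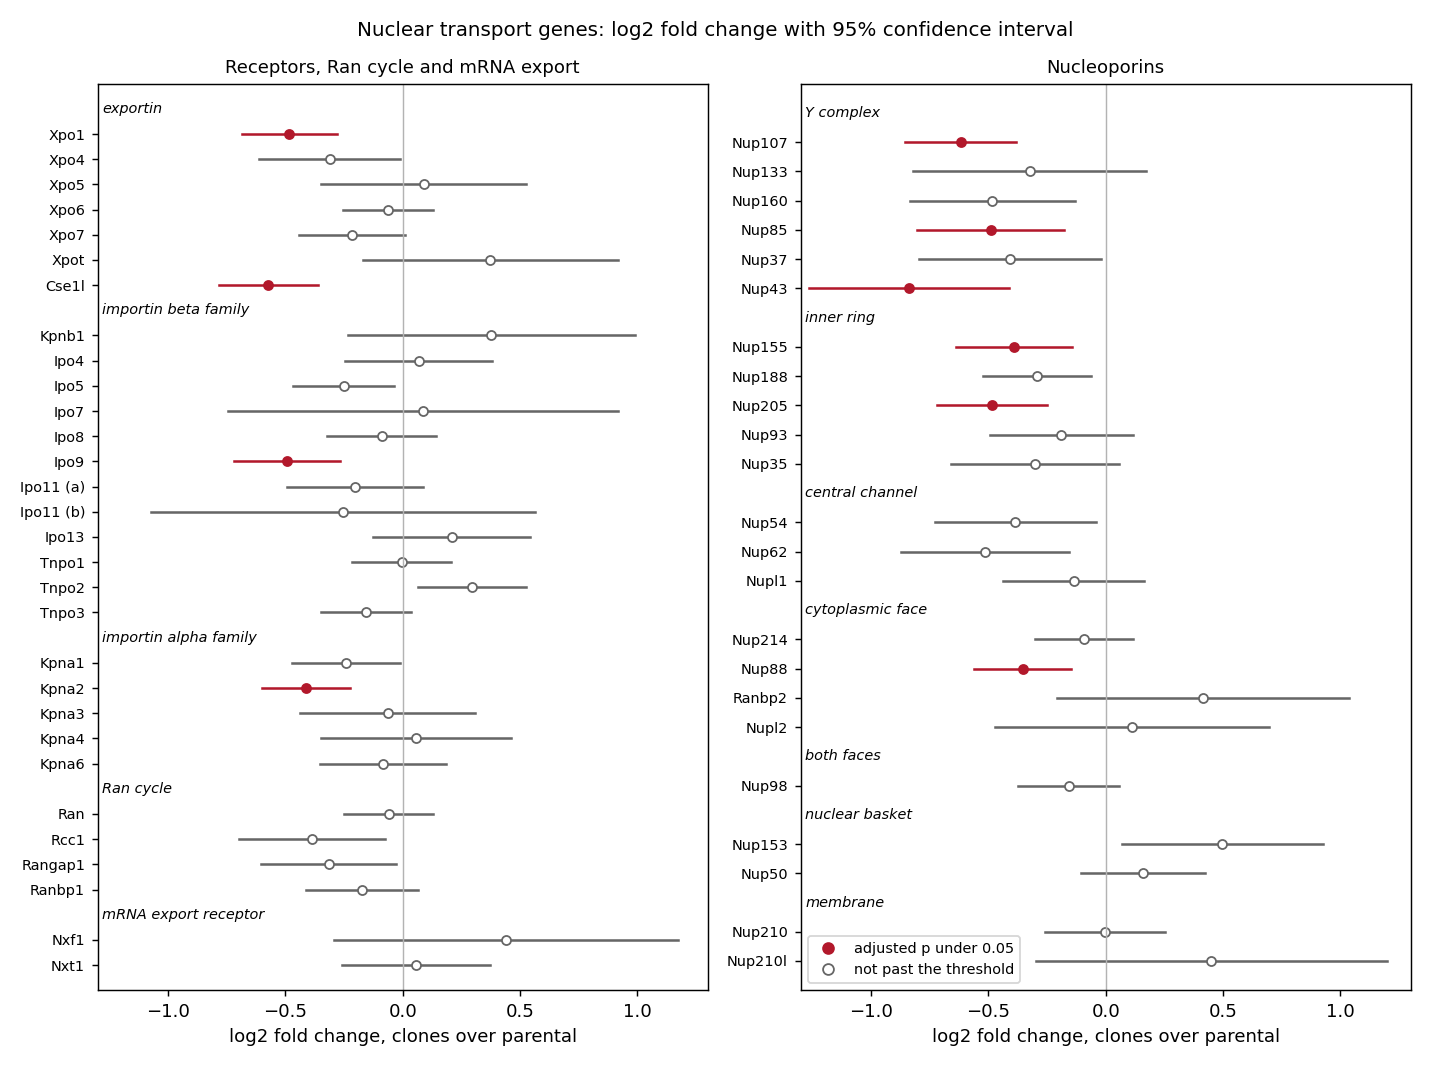
Log2 fold change of each of the 53 transport genes, clones over parental libraries, with the 95% confidence interval of the limma fit (3 clones, 2 parental libraries). Filled red points passed an adjusted p of 0.05, and all 10 of them lie left of 0. Ipo11 (a) and (b) are its 2 identifiers.

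The exportins carry cargo out of the nucleus, and 2 of the 7 fell in the clones, beside 8.49% of all genes. Xpo1, the receptor of NPM1c itself, had 5354, 5791 and 5340 normalised reads in clones 4, 12 and 18, against 7262 and 8114 in parental replicates 1 and 2. The highest clone stayed below the lower parental library. Xpo1 averaged 5495 ± 256 in the clones (SD, n = 3) and 7688 ± 602 in the parental libraries (SD, n = 2), a log2 fold change of -0.48 (adjusted p = 0.0107, SE 0.0870, limma). The call was lost without parental replicate 2 (log2 fold change -0.40, adjusted p = 0.0744, limma) and held under the other 14 of 15 alternatives.

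Cse1l, which returns importin alpha to the cytoplasm after import, had 3961, 3680 and 3433 normalised reads in clones 4, 12 and 18, against 5480 and 5481 in parental replicates 1 and 2. The parental libraries were nearly identical and every clone lay below them. The log2 fold change was -0.57 (adjusted p = 0.00652, SE 0.0903, limma), and Cse1l was called lower under all 15 alternatives, with adjusted p between 1.5e-06 and 0.0389.

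The other exportins did not pass. Xpo4, which exports the translation factor eIF5A, was at 649 to 790 in the clones and 893 to 917 in the parental libraries, and Xpo7 at 1284 to 1393 in the clones and 1538 to 1563 in the parental libraries. The groups of both genes were separate, yet the adjusted p was 0.148 for Xpo4 and 0.179 for Xpo7 (limma). Xpo6, the exporter of profilin with actin, was at 4642 to 4819 in the clones and 4717 to 5188 in the parental libraries, and its interval ran from -16.3% to 9.29%.

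In both RNA exportins the parental libraries were far apart. Xpot, the tRNA exporter, had 1243, 1030 and 1059 normalised reads in clones 4, 12 and 18, against 1120 and 651 in parental replicates 1 and 2. Xpo5, which exports microRNA precursors, had 562, 537 and 534 in clones 4, 12 and 18, against 631 and 415 in parental replicates 1 and 2. In each gene the clones lay between or close to the 2 parental values. Neither passed (log2 fold changes 0.37 with SE 0.228 for Xpot and 0.09 with SE 0.188 for Xpo5, adjusted p = 0.312 and 0.778, limma), and both changed sign without parental replicate 2 (log2 fold changes -0.017 and -0.21). Without parental replicate 1 Xpot was called higher (log2 fold change 0.77, adjusted p = 0.0249, limma), and Xpo5 was not (0.39, adjusted p = 0.147).

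**Figure D2:**
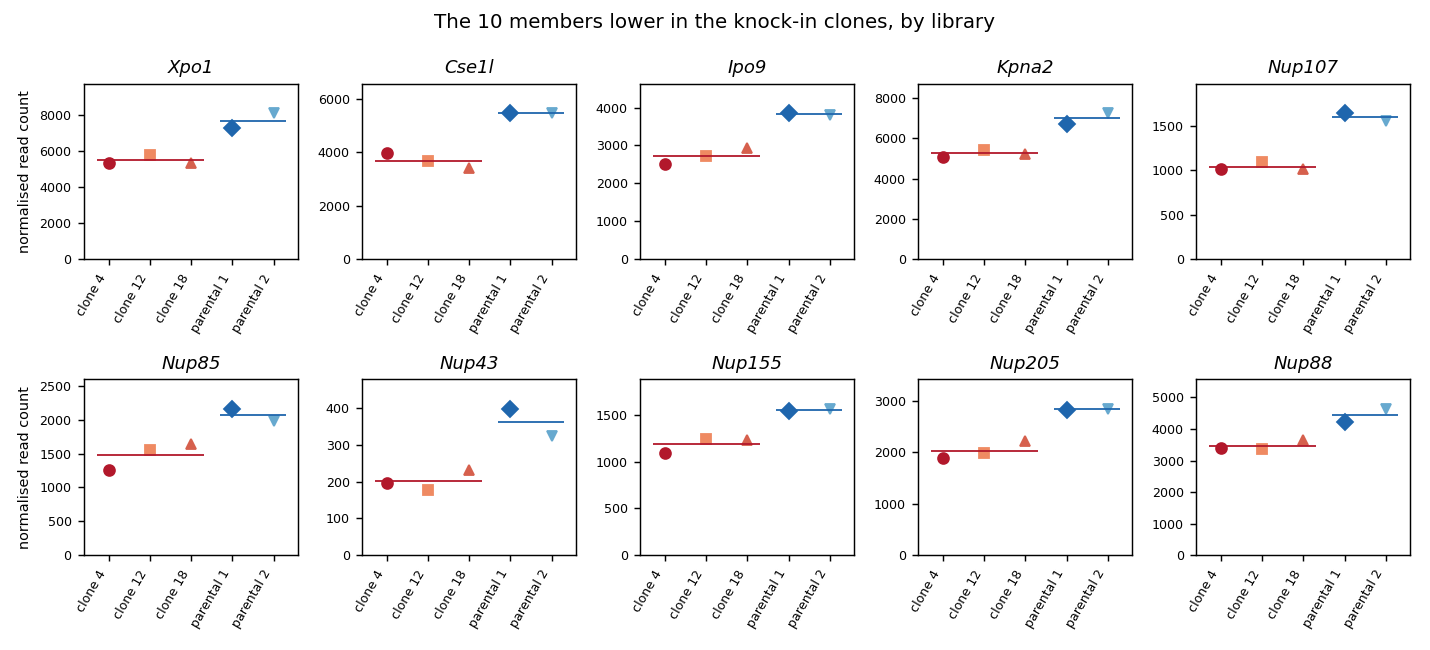
Normalised read counts of the 10 members that were lower in the knock-in clones, by library (clones 4, 12 and 18, then parental replicates 1 and 2). Horizontal lines are group means, and in every panel the 3 clones lie below both parental libraries.

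Of the importin beta family, which brings cargo into the nucleus directly or through importin alpha, 1 of 12 rows fell. That is 8.33%, near the 8.49% of all genes that were lower. Ipo9, an importer of core histones, had 2509, 2717 and 2945 normalised reads in clones 4, 12 and 18, against 3858 and 3800 in parental replicates 1 and 2. All clones were lower than both parental libraries, with a log2 fold change of -0.49 (adjusted p = 0.0143, SE 0.0970, limma). The fold change was nearly the same without clone 12 or either parental library (-0.48 to -0.51), although the adjusted p was then 0.0550 to 0.0659.

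Kpnb1 is the importin beta that pairs with importin alpha for classical import signals. It had 3110, 3296 and 3242 normalised reads in clones 4, 12 and 18, against 3370 and 1815 in parental replicates 1 and 2. The clones were close to parental replicate 1 and were 1.77 times parental replicate 2. The log2 fold change was 0.38 (adjusted p = 0.352, SE 0.249, limma), and it was 0.82 without parental replicate 1 (adjusted p = 0.00570) and -0.068 without parental replicate 2 (adjusted p = 0.761, limma).

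Tnpo2, a close relative of the hnRNP importer Tnpo1, was 1 of 2 members in which every clone exceeded both parental libraries. It had 2010, 2041 and 1810 normalised reads in clones 4, 12 and 18, against 1591 and 1585 in parental replicates 1 and 2. It did not pass with limma (log2 fold change 0.30, SE 0.0987, adjusted p = 0.0829) but was the member that DESeq2 called higher. Tnpo1 itself was at 2595 to 2858 in the clones and 2666 to 2804 in the parental libraries, with an interval of -13.8% to 15.2%.

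Ipo5, which imports ribosomal proteins and histones, was at 2772 to 2956 in the clones and 3225 to 3629 in the parental libraries, without overlap but with an adjusted p of 0.111 (limma). Tnpo3, the importer of SR splicing factors, was at 3498 to 3682 in the clones and 3883 to 4134 in the parental libraries (adjusted p = 0.237, limma). Ipo7, another importer of ribosomal proteins, showed the widest parental gap of the members: it was at 739 to 837 in the clones, against 1128 and 489 in parental replicates 1 and 2. It was not called with all 5 libraries (adjusted p = 0.888) but was called higher without parental replicate 1 (log2 fold change 0.69, adjusted p = 0.0293, limma). The remaining rows, Ipo4, Ipo8, Ipo13 and both Ipo11 identifiers, had adjusted p of 0.312 to 0.762 and log2 fold changes of -0.26 to 0.21. Reads of the second Ipo11 identifier, at 19.7 to 36.9 in the clones, may not be separable from those of the first.

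Importin alpha proteins are the adaptors that recognise classical import signals, and 1 of the 5 tested fell, beside 8.49% of all genes. Kpna2, the isoform most tied to dividing cells, had 5075, 5433 and 5236 normalised reads in clones 4, 12 and 18, against 6709 and 7250 in parental replicates 1 and 2. The groups were well separated, and the log2 fold change was -0.41 (adjusted p = 0.0144, SE 0.0808, limma), a call lost without clone 12 (adjusted p = 0.0514) and without parental replicate 2 (adjusted p = 0.0960, limma). Reads of Kpna2 can be shared with processed pseudogenes, as can those of Ran. Kpna1 was at 1051 to 1080 in the clones and 1235 to 1292 in the parental libraries (adjusted p = 0.146, limma). Kpna3, Kpna4 and Kpna6 overlapped between the groups, with log2 fold changes of -0.08 to 0.06.

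None of the 4 Ran cycle genes passed with limma, edgeR or DESeq2, while 2 were lower at an unadjusted p under 0.05 and voom called 1 lower. Ran, the GTPase that gives transport its direction, had 6883, 7303 and 7685 normalised reads in clones 4, 12 and 18, against 7764 and 7428 in parental replicates 1 and 2. The groups overlapped, and the 95% interval of the difference ran from -15.8% to 9.29%. Rcc1, the chromatin-bound exchange factor that loads Ran with GTP, had 1379, 1594 and 1794 in clones 4, 12 and 18, against 1925 and 2211 in parental replicates 1 and 2. All clones were lower than both parental libraries, but they also differed among themselves, and the log2 fold change of -0.38 (SE 0.134) had an adjusted p of 0.0948 (limma).

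Rangap1, which triggers GTP hydrolysis on Ran at the cytoplasmic side of the pore, had 3488, 4178 and 4591 normalised reads in clones 4, 12 and 18, against 4860 and 5255 in parental replicates 1 and 2. Ranbp1, its helper, had 2722, 3137 and 3248 in clones 4, 12 and 18, against 3497 and 3337 in parental replicates 1 and 2. In all 4 genes clone 4 had the lowest value and clone 18 the highest of the clones. The log2 fold changes were -0.32 for Rangap1 (SE 0.124, adjusted p = 0.130) and -0.17 for Ranbp1 (SE 0.103, adjusted p = 0.290, limma).

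The mRNA export receptor is a pair of Nxf1 and Nxt1 and works without Ran. Neither passed with limma, edgeR, DESeq2 or voom, and at an unadjusted p under 0.05 the count was also 0. Nxf1 had 749, 640 and 647 normalised reads in clones 4, 12 and 18, against 726 and 342 in parental replicates 1 and 2. Its parental libraries were 2.12 times apart, with the clones near the upper one. The log2 fold change was 0.44 (adjusted p = 0.369, SE 0.304), and it was 0.98 without parental replicate 1 (adjusted p = 0.0120) and -0.10 without parental replicate 2 (adjusted p = 0.753, limma). Nxt1 was at 426 to 480 in the clones and 440 to 445 in the parental libraries (adjusted p = 0.808, limma).

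Nucleoporins build the pore, and 6 of 23 were lower in the clones, beside 8.49% of all genes lower and 48.9% with a negative log2 fold change. The falls were mostly in its structural rings. In the Y complex, the outer ring that also acts at kinetochores, 3 of 6 members fell and all 6 had a negative log2 fold change, with a median of -0.49. Its subunits Sec13 and Seh1l and its partner Ahctf1 lie outside the chosen symbols. They were not called, with log2 fold changes of 0.17, 0.05 and 0.03 (limma). Without parental replicate 2 all 9 genes of the further pore list, which holds them, were negative. In the inner ring, 2 of 5 fell and all 5 were negative, with a median of -0.30. Without clone 12 or without parental replicate 1 a single member of the Y complex was called lower, and without clone 12 or either parental library no member of the inner ring was. Leaving out clone 4 or clone 18 left 1 inner ring member called. Of the other nucleoporins, 1 of 12 fell, a share near that of all genes.

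Nup107, the Y complex subunit through which the ring assembles, had 1013, 1092 and 1018 normalised reads in clones 4, 12 and 18, against 1644 and 1553 in parental replicates 1 and 2. The clones were close together and far below both parental libraries. The log2 fold change was -0.62 (adjusted p = 0.00766, SE 0.102, limma), and Nup107 was called lower under all 15 alternatives, with adjusted p between 1.7e-06 and 0.0340.

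Nup43, a small propeller protein of the Y complex, showed the largest fall of the 53 members. It had 197, 177 and 233 normalised reads in clones 4, 12 and 18, against 399 and 326 in parental replicates 1 and 2. The log2 fold change was -0.84 (adjusted p = 0.0207, SE 0.184, limma), a call lost without clone 12 (adjusted p = 0.0814), without parental replicate 1 (adjusted p = 0.0858) and without the filter on low values (adjusted p = 0.0512, limma).

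Nup85, another Y complex subunit, had 1253, 1560 and 1647 normalised reads in clones 4, 12 and 18, against 2166 and 1986 in parental replicates 1 and 2. Its log2 fold change was -0.49 (adjusted p = 0.0472, SE 0.135, limma), close to the threshold, and 6 of 15 alternatives ended the call. Nup160 was at 443 to 584 in the clones and 705 to 733 in the parental libraries, without overlap (log2 fold change -0.48, SE 0.152, adjusted p = 0.0702, limma). Nup37 was likewise separate, at 273 to 363 in the clones and 404 to 420 in the parental libraries (adjusted p = 0.145, limma). In Nup133 the groups overlapped, with 273 to 361 in the clones, against 496 and 338 in parental replicates 1 and 2.

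Nup205, the large inner ring scaffold, had 1887, 1987 and 2214 normalised reads in clones 4, 12 and 18, against 2820 and 2844 in parental replicates 1 and 2. Even the highest clone was well below the parental pair, and the log2 fold change was -0.48 (adjusted p = 0.0175, SE 0.101, limma). It fell short of the threshold without clone 12 or either parental library (adjusted p = 0.0582 to 0.0836), with log2 fold changes of -0.47 to -0.49. Nup155, which links the inner ring to the membrane, had 1093, 1242 and 1232 in clones 4, 12 and 18, against 1546 and 1568 in parental replicates 1 and 2. The log2 fold change was -0.39 (adjusted p = 0.0447, SE 0.106, limma), and leaving out any single library ended the call (adjusted p = 0.0637 to 0.157). Nup188, Nup93 and Nup35 had every clone below both parental libraries, with log2 fold changes of -0.29, -0.19 and -0.30 and adjusted p of 0.0858, 0.365 and 0.227 (limma).

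The central channel holds phenylalanine-glycine (FG) repeat proteins that receptors touch as they pass. None of its 3 members passed with limma or edgeR, while 2 were lower at an unadjusted p under 0.05, and DESeq2 and voom each called Nup62. Nup62 had 2454, 3000 and 3593 normalised reads in clones 4, 12 and 18, against 4206 and 4309 in parental replicates 1 and 2. All clones were below the parental pair, yet the clones spanned 1.46-fold, and the log2 fold change of -0.51 (SE 0.153) had an adjusted p of 0.0620 (limma). Nup54 was at 403 to 490 in the clones and 543 to 587 in the parental libraries (adjusted p = 0.123, limma), and Nupl1, also called Nup58, at 660 to 749 in the clones and 711 to 814 in the parental libraries (adjusted p = 0.510, limma).

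At the cytoplasmic face, where export complexes are taken apart, 1 of 4 members fell, beside 8.49% of all genes lower. Nup88 had 3395, 3363 and 3660 normalised reads in clones 4, 12 and 18, against 4237 and 4646 in parental replicates 1 and 2, a log2 fold change of -0.35 (adjusted p = 0.0347, SE 0.0894, limma). All 3 clones were lower than the parental libraries, but only leaving out clone 18 kept the call, and the other single libraries gave adjusted p of 0.0505 to 0.186. Nup214, its partner and a fusion gene in leukaemia, had 1926, 1875 and 2002 in clones 4, 12 and 18, against 2065 and 2058 in parental replicates 1 and 2. All 3 clones were slightly below both parental libraries, and the 95% interval ran from -18.8% to 8.36% (log2 fold change -0.09, adjusted p = 0.517, limma). Ranbp2, the giant SUMO ligase that anchors Rangap1, had 2066, 2047 and 1882 in clones 4, 12 and 18, against 2052 and 1091 in parental replicates 1 and 2. It thus resembled Kpnb1, with the clones near parental replicate 1 and 1.83 times parental replicate 2 (log2 fold change 0.42, SE 0.255, adjusted p = 0.319, limma). Nupl2, also called Nup42, was at 101 to 148 in the clones and 99.4 to 145 in the parental libraries (adjusted p = 0.799, limma). Without parental replicate 1 Ranbp2 was called higher (log2 fold change 0.87, adjusted p = 0.00700), and without parental replicate 2 the log2 fold change was -0.040 (adjusted p = 0.883, limma).

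Nup98 also takes part in leukaemia fusions, and its transcript encodes the Y complex subunit Nup96 as well. It had 1584, 1595 and 1547 normalised reads in clones 4, 12 and 18, against 1700 and 1818 in parental replicates 1 and 2. The groups did not overlap, but the difference was small, with a log2 fold change of -0.16 (adjusted p = 0.289, SE 0.0934, limma) and a 95% interval of -22.9% to 4.16%.

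In the nuclear basket, which faces the chromatin, both members had positive log2 fold changes and neither passed with limma, edgeR or DESeq2, while 1 was higher at an unadjusted p under 0.05. The main basket protein, Tpr, lies outside the chosen symbols and went the other way (log2 fold change -0.15, adjusted p = 0.271, limma). Nup153 had 1141, 1066 and 972 normalised reads in clones 4, 12 and 18, against 921 and 608 in parental replicates 1 and 2. It was the other member with every clone above both parental libraries (log2 fold change 0.50, SE 0.183, adjusted p = 0.113, limma), and voom called it higher. Without parental replicate 1 limma also called Nup153 higher (log2 fold change 0.80, adjusted p = 0.0183). The median of the pair was 0.53 without parental replicate 1 and 0.13 without parental replicate 2, against 0.33 with all 5 libraries. Nup50 was at 1284 to 1433 in the clones and 1117 to 1288 in the parental libraries (adjusted p = 0.370, limma). The membrane nucleoporin Nup210 was at 4499 to 5611 in the clones and 5071 to 5276 in the parental libraries, with an interval of -16.5% to 19.3%. Its relative Nup210l was at 29.5 to 49.2 in the clones and 24.9 to 30.7 in the parental libraries (adjusted p = 0.378, limma).

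In 7 of the 53 members (13.2%) parental replicate 1 was more than 1.5 times parental replicate 2, and in none was the reverse true, beside 7.61% and 4.71% of all genes tested. They are Xpo5, Xpot, Kpnb1, Ipo7, Nxf1, Ranbp2 and Nup153, and in each of them all 3 clones lay above parental replicate 2. A low parental replicate 2 helped to pick these genes, and by itself makes clone values above it more likely. How often this held among all genes with such a gap was not counted. The clone mean was 0.701 to 1.15 times parental replicate 1 and 1.31 to 1.98 times parental replicate 2. Parental replicate 2 held more reads than the other 4 libraries combined, and the part of depth in these gaps was not tested. None of the 10 called members is among the 7. A wide parental gap raises the standard error (0.183 in Nup153 to 0.338 in Ipo7), which by itself makes a call at these fold changes unlikely. Among the clones the members were even: the highest clone was more than 1.5 times the lowest in 2 of 53 (the second Ipo11 identifier and Nup210l), beside 22.2% of all genes tested. Those 2 rows had the lowest values of the 53 members, and the shares were not compared at like expression levels.

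**Figure D3:**
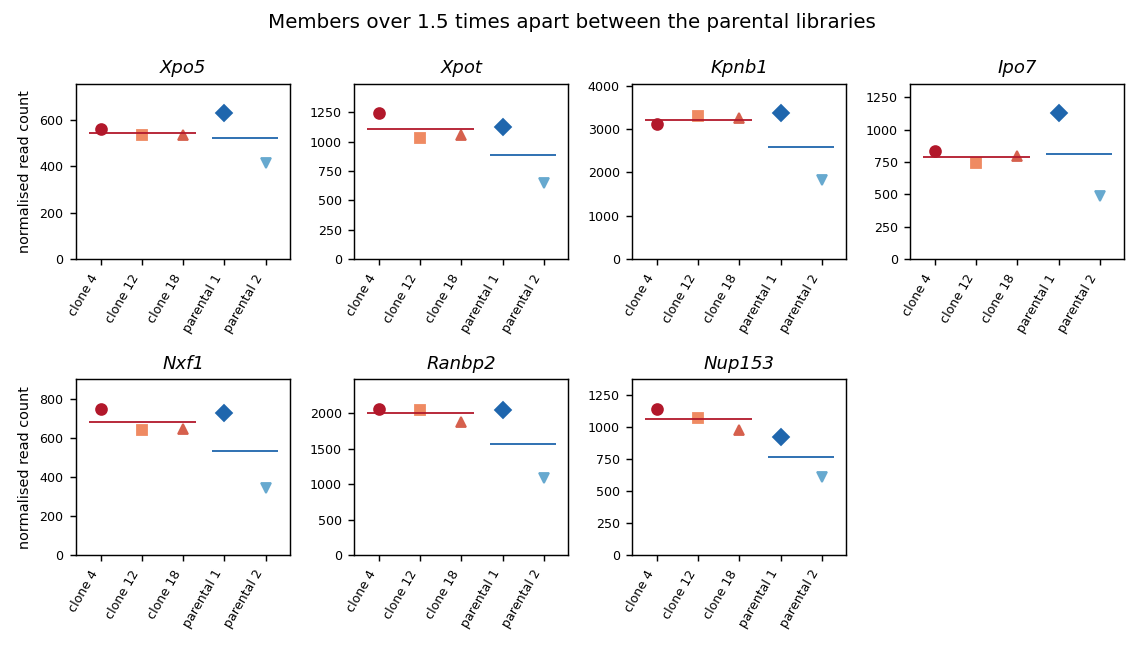
Normalised read counts of the 7 members whose parental libraries were more than 1.5 times apart, by library, with group means as horizontal lines. In each panel all 3 clones lie above parental replicate 2, whose low value relative to parental replicate 1 picked these genes.

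Among 52 further tested genes of the pathway outside the chosen symbols, 4 were lower and none was higher (limma). That is 7.69%, near the 8.49% of all genes that were lower. At an unadjusted p under 0.05 limma gave 10 lower and 0 higher, beside 2102 and 1985 of all 13132 genes tested. edgeR called 4 lower and 0 higher, with a TREX gene in place of Sumo3, and DESeq2 8 lower and 0 higher. Without parental replicate 2 limma called 1 lower, and without parental replicate 1 it called 3 lower and 2 higher. In the pore list 1 of 9 fell: Tmem48, also called Ndc1, a membrane anchor of the pore, had 1329, 1607 and 1547 normalised reads in clones 4, 12 and 18, against 2153 and 2275 in parental replicates 1 and 2 (log2 fold change -0.57, adjusted p = 0.0146, limma). Tpr, the main protein of the nuclear basket, was at 10278 to 11422 in the clones and 11404 to 12608 in the parental libraries (log2 fold change -0.15, adjusted p = 0.271, limma).

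Of the further Ran and receptor genes 1 of 8 fell, and each list count here stands beside 8.49% of all genes lower. Nmd3, the adaptor through which Xpo1 exports the large ribosomal subunit, had 659, 639 and 528 normalised reads in clones 4, 12 and 18, against 1016 and 1038 in parental replicates 1 and 2 (log2 fold change -0.76, adjusted p = 0.0108, limma). All clones were far below the parental pair, but without parental replicate 2 neither Nmd3 nor Tmem48 was called. Of the lamina list 1 of 10 fell, namely Tmpo, which encodes the lamina-associated polypeptide 2, with 5623, 6717 and 6791 in clones 4, 12 and 18, against 9906 and 10201 in parental replicates 1 and 2 (log2 fold change -0.66, adjusted p = 0.00563, limma). Of the SUMO list 1 of 8 fell: Sumo3, at 2226 to 2389 in the clones and 2818 to 3007 in the parental libraries (adjusted p = 0.0489, limma). That call was lost under 10 of 15 alternatives, edgeR, TMM scaling and the omission of any single library among them. In the TREX and mRNA export list none of 17 passed with limma, while 3 were lower at an unadjusted p under 0.05, edgeR called 1 lower and DESeq2 called 3 lower.

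Genes of S phase and mitosis were lower in the clones as well: 15 of 25 fell and none rose, beside 8.49% of all genes lower and 7.51% higher (limma, edgeR; DESeq2 called 16 lower and 0 higher, and at an unadjusted p under 0.05 limma gave 18 and 0), with a median log2 fold change of -0.61. Ccna2, the cyclin of S phase and G2, had 1422, 1875 and 1799 normalised reads in clones 4, 12 and 18, against 4125 and 3723 in parental replicates 1 and 2 (log2 fold change -1.22, adjusted p = 0.00156, limma). Without clone 12 the list had 8 lower (4.20% of all genes), and without parental replicate 2 it had 9 lower (3.02% of all genes). Without parental replicate 1 it had 7 lower and 3 higher (4.26% and 9.26% of all genes). The median deviation of the list from the gene means was -0.42, -0.23 and -0.05 log2 units in clones 4, 12 and 18, against 0.51 and 0.33 in parental replicates 1 and 2. For the Y complex the same measure was -0.38, -0.07 and -0.14 in clones 4, 12 and 18, against 0.38 and 0.27 in parental replicates 1 and 2. Clone 4 was lowest in both. The Ran cycle genes gave -0.28, -0.05 and 0.04 in clones 4, 12 and 18, against 0.13 and 0.16 in parental replicates 1 and 2, with clone 4 again lowest. The inner ring and central channel also had clone 4 lowest. In the exportins, however, clone 4 was the highest of the clones, at -0.02, with -0.12 and -0.07 in clones 12 and 18, against 0.17 and 0.14 in parental replicates 1 and 2. It was also highest in both importin families, the mRNA export receptor, the cytoplasmic face, the nuclear basket and the membrane group. Over all 53 members the measure was -0.04, -0.08 and -0.06 in clones 4, 12 and 18. Clones 12 and 18 stood in opposite order in the Y complex and the S phase and mitosis list. The part of cell division in the transport genes' values was not tested. In bulk libraries fewer dividing cells and less RNA per cell cannot be told apart.

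MYC and nucleolar genes, many of which serve ribosome production, showed 1 of 12 lower and none higher (limma, edgeR and DESeq2; at an unadjusted p under 0.05 limma gave 2 lower and 1 higher), a share near the 8.49% of all genes lower, with a median log2 fold change of -0.0069. With voom 1 was lower and 1 higher. Without clone 12 or parental replicate 2 none was lower, and without parental replicate 1 4 were higher.

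**Figure D4:**
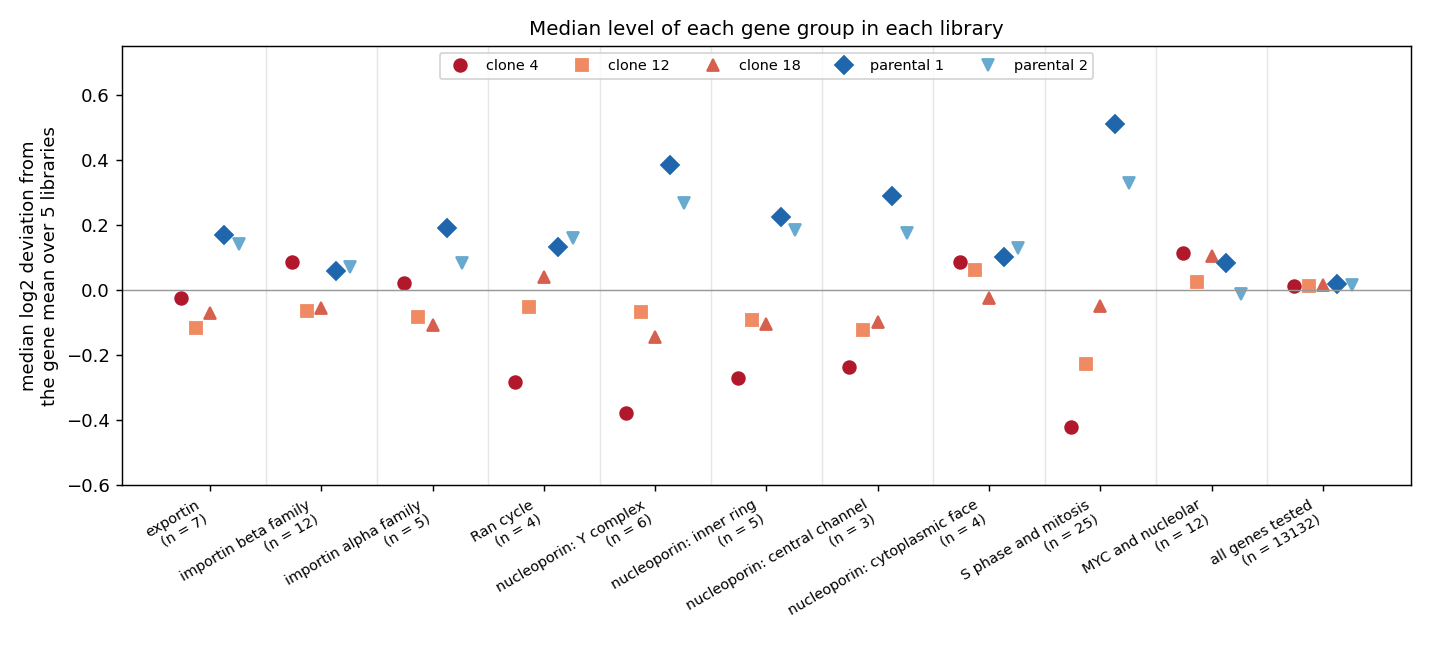
Median, over the genes of each group, of the log2 deviation of a library from the gene's mean over the 5 libraries, on a scale of log2(value + 1). The gap between the clones and the parental libraries is wide in the Y complex, inner ring, central channel and S phase and mitosis groups, while all genes tested lie near 0. The mRNA export receptor, nuclear basket and membrane groups and Nup98 are not drawn. Their median log2 fold changes were 0.25, 0.33, 0.22 and -0.16 (limma).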

How the data were processed

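Mouse RNA libraries were made with the NEBNext Ultra II kit, per the labels' protocols. Tools listed, without roles, in the submitters' processing notes are DESeq2, RSEM and STAR 2.6.1, and the builds are mm9 and hg19. The sources used here do not give the annotation release or strand setting. The authors deposited 1 signal value per Ensembl gene and library, and the values show read counts divided by a size factor: 100% of values above 0 were whole multiples of the library's smallest value, within 0.01. Groups and clone numbers follow the sample titles; the column headings in the files number the clones differently within the knock-in group, and the descriptions number the parental libraries the other way round. Neither changes the groups, but values of single libraries depend on the numbering. The human libraries, listed by numbered transcript clusters, were not used here.

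limma 3.58.1 (R 4.3.3, trend, robust) on log2(value + 1) was fitted to 13132 genes with a mean of at least 10, clones against parental libraries, with Benjamini-Hochberg adjustment over all genes. Fold changes of low genes are understated on this scale. The recovered reads were also tested with edgeR 4.0.16 (2206 genes called, TMM), DESeq2 1.42.0 (2681) and voom. Alternatives were other pseudocounts (0.5 and 5), filters, scalings and thresholds, and leaving out each library. The scripts were tested on simulated data. No pair of libraries was a duplicate: chi-square per degree of freedom was 6.11 to 11.4 for clone pairs and 25.5 for the parental pair. Precision is limited by 3 and 2 libraries a group, and limits from a count of 0 cover counting error only.

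Members and lists were chosen with earlier results of these data known. Named whatever their values were Xpo1, Cse1l, Xpo5, Xpot, Kpnb1, Kpna2, Ran, Rangap1, Rcc1, Ranbp1, Ranbp2, Nup98, Nup214 and Nxf1, then up to 12 called members in each direction and up to 4 called genes of each further list. Other members are named to account for all of them, and Tpr was chosen after its values were seen. Ndc1, Alyref, Alyref2, Bat1a, Ddx39a, Chtop and Spi1 matched no symbol in the table, where Ndc1 stands as Tmem48. The single value of 1 erythroid marker is not reported here. No mouse sequence is shown.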

Additional observations from a re-analysis of the deposited data

How the results depend on the processing

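The count of transport genes called was 10 and stayed between 8 and 14 with other pseudocounts, a filter at a mean of 50, TMM or library totals as scaling, edgeR, DESeq2, voom, and no robust moderation. Of all genes, 15.7% to 22.9% were called under those settings. The count was 15 at an adjusted p under 0.1, where 3073 of all 13132 genes were called. Without a filter on low values, where more genes are tested, it was 6, all 6 lower. Of all genes 7.03% were then called, and 3.73% were lower. The count was 2 where at least a 1.5-fold difference was also required, both lower, beside 12.2% of all genes. DESeq2, voom and the adjusted p under 0.1 each called 1 member higher. Leaving out single libraries gave 3 to 10 members called, 3 to 10 lower and 0 to 6 higher, and 981 to 2117 genes called in all, against 2101. Without a parental library the lone other one is assumed to vary like the clones. Of the 21 genes followed, 5 turned sign, each without parental replicate 2. Over single libraries left out, the log2 fold change ran from -0.21 to 0.39 in Xpo5, -0.017 to 0.77 in Xpot, -0.068 to 0.82 in Kpnb1, -0.10 to 0.98 in Nxf1 and -0.040 to 0.87 in Ranbp2. Cse1l and Nup107 were called under all 15 alternatives of scaling, filter, tool and library. The cause of these changes was not tested. No paired analysis was possible because the clone numbers and parental replicate numbers are not shared. Depth limits the second Ipo11 identifier and Nup210l most, since they had the lowest values of the 53 members.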
